A study of Homo sapiens with 8 samples.

Results

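The immediate early genes described here are EGR1, EGR2, EGR3, EGR4, IER2, IER3, IER5, KLF2, KLF4 and KLF6, immediate early genes outside the AP-1 family. They were chosen by gene name, with earlier results of these data known. All 10 were found among the 23786 gene features of the arrays through the Entrez Gene number that forms each feature's name. RNA of WM983B and SK-Mel5, 2 lines grown from human melanoma, was hybridised to 8 Affymetrix Human Gene 2.0 ST arrays. The 4 groups were WM983B with shp300, WM983B with scrambled shRNA, SK-Mel5 with shp300 and SK-Mel5 with scrambled shRNA, with 2 arrays each. The shp300 virus carries a short hairpin RNA against EP300, which encodes p300, an enzyme that acetylates histones, and the scrambled virus a control hairpin. All groups received a pLKO1-based lentivirus with 8 µg/mL polybrene and were put under 1.5 µg/mL puromycin from 48 h after transduction. The interval between selection and RNA isolation, the serum state at harvest and the number of hairpins behind the name shp300 are not given in the sources used here. Nor do the labels state that arrays of 1 group were separate cultures, so each p-value reflects the spread between these arrays, which may be technical.

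Immediate early genes are transcribed within minutes of a stimulus such as serum, growth factors or stress, from factors that the cell already holds. ERK kinases phosphorylate ternary complex factors, which sit with serum response factor (SRF) on CArG boxes, while CREB proteins bind cAMP response elements (CREs), and p300 and its relative CBP are coactivators that such factors recruit. EGR and KLF proteins are zinc finger transcription factors, and the IER genes encode small proteins of other kinds. Handling, virus and drug selection can also induce these genes.

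Promoter sequences are shown to let the members be compared where CArG boxes and CREs are known to act. RefSeq windows (GRCh38.p14) from 250 bases before to 50 after each start were used for 8 of the 10 members, EGR2 with 3 starts, which gives 10 windows. No window was used for EGR3 and IER3. In the stretches below, each printed 5′ to 3′ on the gene's strand and ending before the start site, capitals mark a CArG box, the CRE core TGACG read on either strand, or a MEF2 site. The EGR1 stretch (chr5:138465336-138465425, + strand) holds 2 CArG boxes between 2 CRE cores. The EGR2 stretch (chr10:62816408-62816484, − strand, before the third of its starts) holds 1 CArG box between 2 CRE cores and lies downstream of the gene's other starts. The EGR4 stretch (chr2:73293645-73293733, − strand) holds 2 CRE cores and the KLF2 stretch (chr19:16324698-16324723, + strand) a MEF2 site.
EGR1: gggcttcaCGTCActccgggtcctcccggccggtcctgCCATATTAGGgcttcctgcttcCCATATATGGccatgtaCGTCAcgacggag
EGR2: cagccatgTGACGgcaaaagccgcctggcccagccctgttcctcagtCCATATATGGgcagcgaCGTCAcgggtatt
EGR4: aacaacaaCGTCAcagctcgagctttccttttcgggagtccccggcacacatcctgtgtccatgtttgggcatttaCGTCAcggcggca
KLF2: taccgcggCTAAATTTAGgctgcgcc

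CArG boxes were found in the windows of 2 of the 8 members, EGR1 and EGR2, and in 1.29% of the 35116 RefSeq windows of this length. The CRE core TGACG, searched on both strands, was found in 5 members (EGR1, EGR2, EGR4, IER2 and KLF4) and in 24.6% of all windows. The full palindrome TGACGTCA and the TATA box TATAAA were in no member's window and in 1.85% and 11.5% of all windows. The MEF2 site, found only for KLF2 among the members, was in 2.99% of windows. EGR sites (GCGNGGGCG), by which EGR proteins bind DNA, were in 5 members (EGR1, EGR2, KLF2, KLF4 and KLF6) and in 9.43% of windows. GC boxes (GGGCGG), which can share bases with EGR sites, were in 6 members and in 45% of windows. These shares count windows, and EGR2 has 3 of the 10 member windows. Counted by window, CArG boxes were in 2 of the 10, CRE cores in 5, the MEF2 site in 1, EGR sites in 5 and GC boxes in 7. These matches describe the letters of the windows and show no binding.

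**Figure D1:**
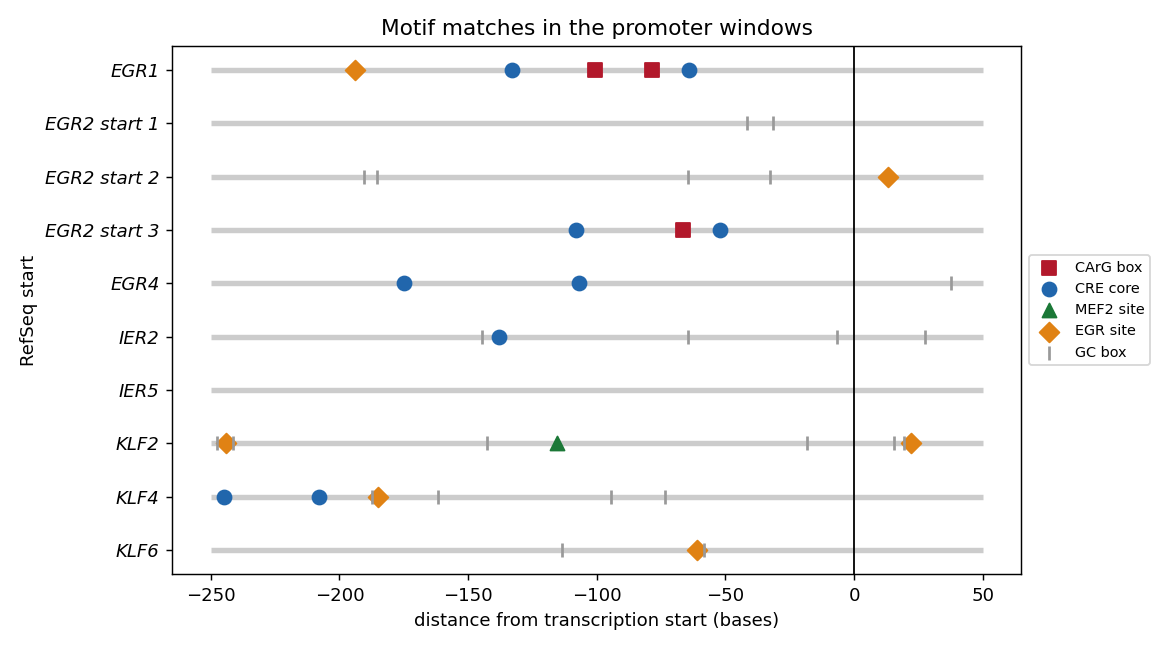
Motif matches in the RefSeq promoter windows of 8 members (rows, EGR2 with 3 starts) against the distance from the transcription start in bases. Squares mark CArG boxes, circles CRE cores, the triangle a MEF2 site, diamonds EGR sites and vertical ticks GC boxes; the 2 CArG boxes of EGR1 and the 1 of EGR2 lie between CRE cores.

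The arrays were first checked against their labels. EP300 had 6.92 and 7.26 on the WM983B arrays labelled shp300 against 7.10 and 7.22 with scrambled shRNA (log2 values), a change of -0.067 with a 95% interval from -0.43 to 0.29 (limma adjusted p = 0.832). In SK-Mel5 it had 5.97 and 6.10 with shp300 against 7.19 and 6.90 with scrambled shRNA, and fell by 1.01 (adjusted p = 0.00377). Every WM983B direction below is therefore that of arrays labelled shp300, on which the RNA of the target was not measurably lower. All values are log2 expression values after RMA, and the array medians were 4.26 to 4.28 in WM983B and 2.96 to 3.01 in SK-Mel5, so the lines were apparently normalised separately and levels were compared only within a line. Of 7 melanocyte lineage markers, all 7 stood above the median feature in every group. In WM983B 5 of them fell, and in SK-Mel5 3 fell (MLANA, DCT and TYRP1), TYR rose by 0.64 (adjusted p = 0.00645) and the other 3 were not called. The summed linear level of the 7 was 5600 to 6680 on the WM983B shp300 arrays against 14000 to 14200 with scrambled shRNA, and 7510 to 8120 against 11200 to 11400 in SK-Mel5, and the part of this in the results below was not tested. Endothelial markers (0 of 7 called in each line, 0 or 1 above the median feature) and keratinocyte markers (1 of 7 called in WM983B, 0 in SK-Mel5, none above the median feature) were low. Of 7 leukocyte markers 1 rose and 1 fell in WM983B and 1 fell in SK-Mel5, with summed levels of 789 to 830 with shp300 against 1780 to 1950 with scrambled shRNA in WM983B and 249 to 282 against 803 to 872 in SK-Mel5. Of 7 fibroblast markers 2 rose in WM983B, and 1 rose and 1 fell in SK-Mel5, with summed levels of 1220 to 1410 against 1100 to 1250 in WM983B and 473 to 497 against 767 to 776 in SK-Mel5. Of 8 HEK293T markers, listed because lentivirus is often produced in those kidney cells, 2 rose and 1 fell in WM983B and none was called in SK-Mel5 (summed level 686 to 751 against 386 to 431 in WM983B, and 669 to 699 against 762 to 774 in SK-Mel5). For comparison with all marker counts, 10.9% of all features were called higher and 11.6% lower in WM983B, and 7.57% and 8.8% in SK-Mel5. The part of these markers in the results was not tested either.

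In WM983B, 7 of the 10 members were higher on the arrays labelled shp300 and none was lower, whereas 10.9% of all features were called higher and 11.6% lower (limma, Benjamini-Hochberg adjusted p under 0.05 over all features). EGR3, EGR2 and EGR1 made the largest changes, followed by IER3, IER2, KLF4 and KLF6. The median change of the members was 1.03, against 0.022 over all features. In such bulk RNA, a change in RNA per cell and a change in the share of cells that express a gene cannot be told apart. Both shp300 arrays lay above both scrambled arrays for 8 members, a pattern that 30.6% of features showed.

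The EGR genes encode activators whose zinc fingers read the same GC-rich site. EGR3 had 7.69 and 7.82 on the WM983B shp300 arrays against 5.35 and 5.19 on the scrambled arrays. The groups were far apart and the change was 2.48, or 5.60-fold (SE 0.135, n = 2 arrays per group, adjusted p = 3.59e-05), the rise of rank 39 among 23786 features. EGR2, known for its role in myelination of peripheral nerve, had 5.49 and 5.81 with shp300 against 3.80 and 3.85 with scrambled shRNA. Its change was 1.82, or 3.54-fold (SE 0.243, adjusted p = 0.00136), and the scrambled arrays stood at percentile 45, below the median feature, so the size of the change is uncertain. EGR1 had 9.31 and 9.59 with shp300 against 7.92 and 7.81 with scrambled shRNA. Its groups did not overlap, and it rose by 1.58, a 3-fold change (SE 0.162, adjusted p = 0.000402). EGR4 had 3.14 and 3.16 with shp300 against 3.06 and 2.87 with scrambled shRNA. At percentiles 34.9 and 32.4 it was the dimmest member, and its change of 0.18 was not called (95% interval -0.18 to 0.55, adjusted p = 0.502).

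IER3, also known as IEX-1 and a modulator of cell survival, had 10.57 and 10.49 with shp300 in WM983B against 9.06 and 9.14 with scrambled shRNA. It rose by 1.42, or 2.68-fold (SE 0.113, adjusted p = 0.000137). IER2, a nuclear protein gene, had 7.29 and 7.34 with shp300 against 5.99 and 5.97 with scrambled shRNA. The groups did not overlap, and IER2 rose by 1.34, or 2.52-fold (SE 0.106, adjusted p = 0.000136). IER5, a partner of heat shock factor HSF1, had 5.89 and 5.80 with shp300 against 5.79 and 5.97 with scrambled shRNA. Its groups overlapped, with a change of -0.038 (95% interval -0.33 to 0.26, adjusted p = 0.889).

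Among the KLF genes, KLF4, one of the reprogramming factors of pluripotency, had 4.99 and 5.13 with shp300 in WM983B against 4.25 and 4.40 with scrambled shRNA. It rose by 0.73 (1.66-fold, SE 0.147, adjusted p = 0.00904), a call that did not survive leaving out WM983B scrambled replicate 1 (adjusted p = 0.0678) or WM983B shp300 replicate 2 (0.0592), within a range of 0.00297 to 0.0678 over its alternatives. KLF6, a broadly expressed GC-box binding factor, had 9.87 and 9.79 with shp300 against 9.14 and 9.15 with scrambled shRNA, and rose by 0.68 (1.61-fold, SE 0.101, adjusted p = 0.00226). KLF2, a factor of endothelial and T cell quiescence, had 5.09 and 5.24 with shp300 against 5.17 and 5.12 with scrambled shRNA. These arrays overlapped, and the change was 0.025 (95% interval -0.33 to 0.38, adjusted p = 0.941).

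**Figure D2:**
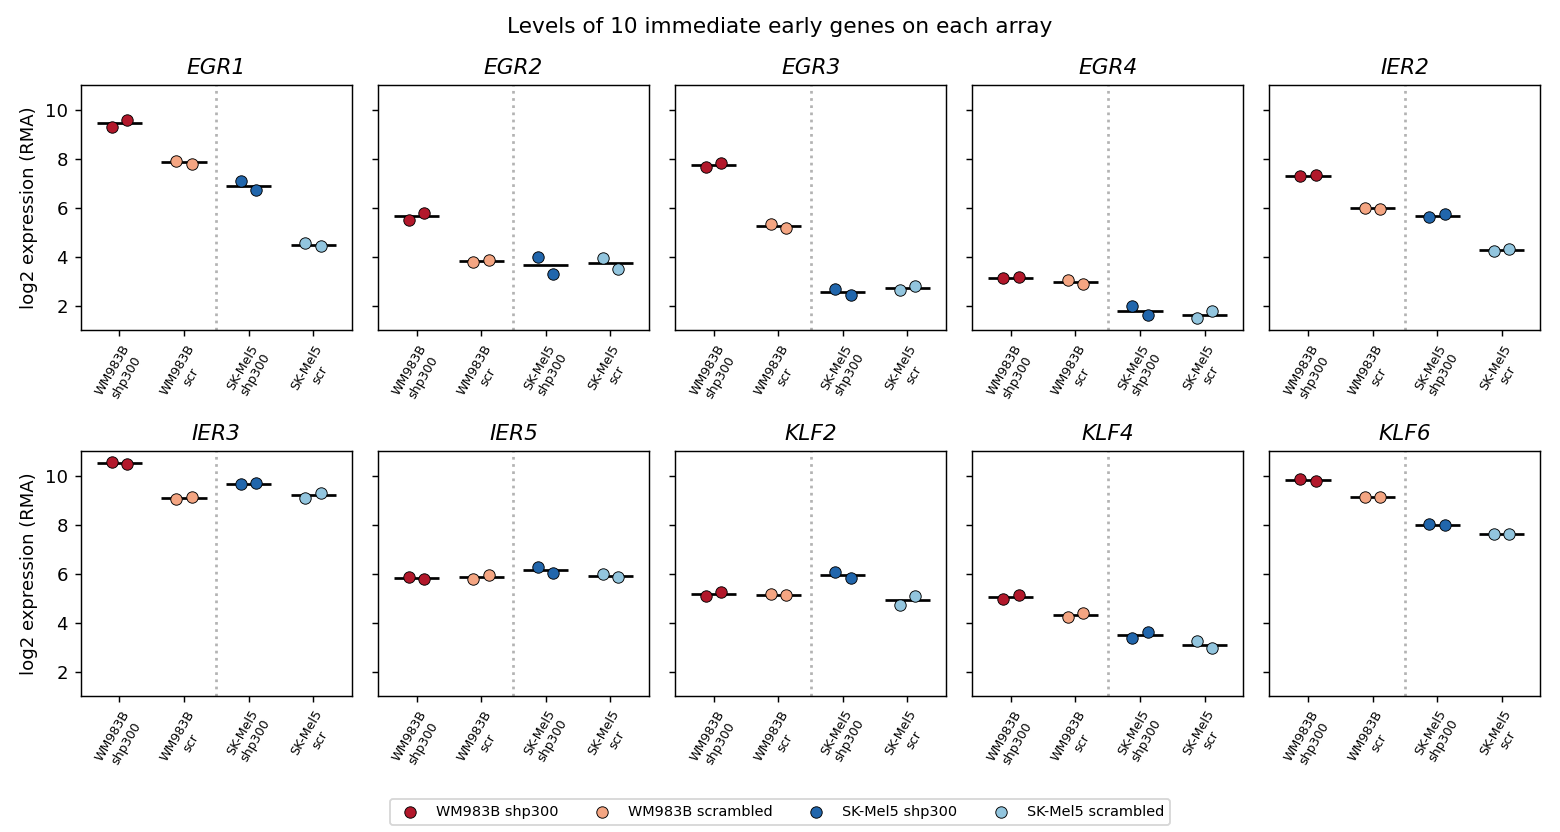
Log2 expression of the 10 members (panels) on every array, with shp300 left of scrambled (scr) in WM983B and then in SK-Mel5; points are arrays and black lines the means of 2. EGR3 stands at 7.69 and 7.82 against 5.35 and 5.19 in WM983B, while its SK-Mel5 groups overlap, and IER5 and KLF2 overlap in WM983B.

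In SK-Mel5, where EP300 RNA fell, 5 of the 10 members were higher with shp300 and none was lower, against 7.57% of all features called higher and 8.8% called lower. The count was 3 when SK-Mel5 scrambled replicate 1, SK-Mel5 shp300 replicate 1 or SK-Mel5 shp300 replicate 2 was left out. Fewer of all features were called in these fits too. With all arrays, EGR1 made the largest change, then IER2 and KLF2, and IER3 and KLF6 rose less. The median change of the members was 0.39, against 0.012 over all features. Both shp300 arrays lay above both scrambled arrays for 7 members, as they did for 26.3% of features.

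EGR1 had 7.10 and 6.71 with shp300 in SK-Mel5 against 4.55 and 4.43 with scrambled shRNA. It rose by 2.41, or 5.33-fold (SE 0.162, adjusted p = 0.000109), the rise of rank 6 among 23786 features. The other EGR genes did not pass the test. EGR2 had 4.0 and 3.31 with shp300 against 3.97 and 3.52 with scrambled shRNA, overlapping groups with a change of -0.087 (95% interval -0.65 to 0.47, adjusted p = 0.884). EGR3 had 2.68 and 2.44 with shp300 against 2.65 and 2.81 with scrambled shRNA. It stood below the median feature in both groups (percentiles 44.3 and 46.9) and its change was -0.17 (95% interval -0.48 to 0.14, adjusted p = 0.503). EGR4 had 1.97 and 1.63 with shp300 against 1.48 and 1.79 with scrambled shRNA, again at low percentiles (29.3 and 24.9), with a change of 0.17 (95% interval -0.20 to 0.54, adjusted p = 0.59).

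IER2 had 5.61 and 5.75 with shp300 in SK-Mel5 against 4.25 and 4.30 with scrambled shRNA, and rose by 1.41, or 2.65-fold (SE 0.106, adjusted p = 0.000161). IER3 had 9.68 and 9.70 with shp300 against 9.11 and 9.30 with scrambled shRNA. The groups did not overlap and IER3 rose by 0.48 (1.40-fold, SE 0.113, adjusted p = 0.0237). That call was lost without SK-Mel5 scrambled replicate 1 (adjusted p = 0.146), SK-Mel5 shp300 replicate 1 (0.074) or SK-Mel5 shp300 replicate 2 (0.0851), and when only the 4 SK-Mel5 arrays were fitted (0.0793), within a range of 0.000594 to 0.146. IER5 had 6.27 and 6.04 with shp300 against 5.98 and 5.87 with scrambled shRNA, with a change of 0.23 that was not called although the groups did not overlap (95% interval -0.068 to 0.52, adjusted p = 0.309).

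KLF2 had 6.07 and 5.83 with shp300 in SK-Mel5 against 4.73 and 5.10 with scrambled shRNA. It rose by 1.04, or 2.05-fold (SE 0.152, adjusted p = 0.00308). KLF6 had 8.03 and 7.98 with shp300 against 7.63 and 7.62 with scrambled shRNA, and rose by 0.39 (1.31-fold, SE 0.101, adjusted p = 0.0353). The KLF6 call was lost without SK-Mel5 scrambled replicate 1 (adjusted p = 0.132) or 2 (0.139), SK-Mel5 shp300 replicate 1 (0.116) or 2 (0.0882), or WM983B scrambled replicate 1 (0.0632) or 2 (0.0632), and when only the 4 SK-Mel5 arrays were fitted (0.0835), within a range of 0.00157 to 0.139. KLF4 had 3.39 and 3.63 with shp300 against 3.26 and 2.96 with scrambled shRNA. Its arrays did not overlap, but the change of 0.40 did not pass (95% interval 0.06 to 0.74, adjusted p = 0.116).

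**Figure D3:**
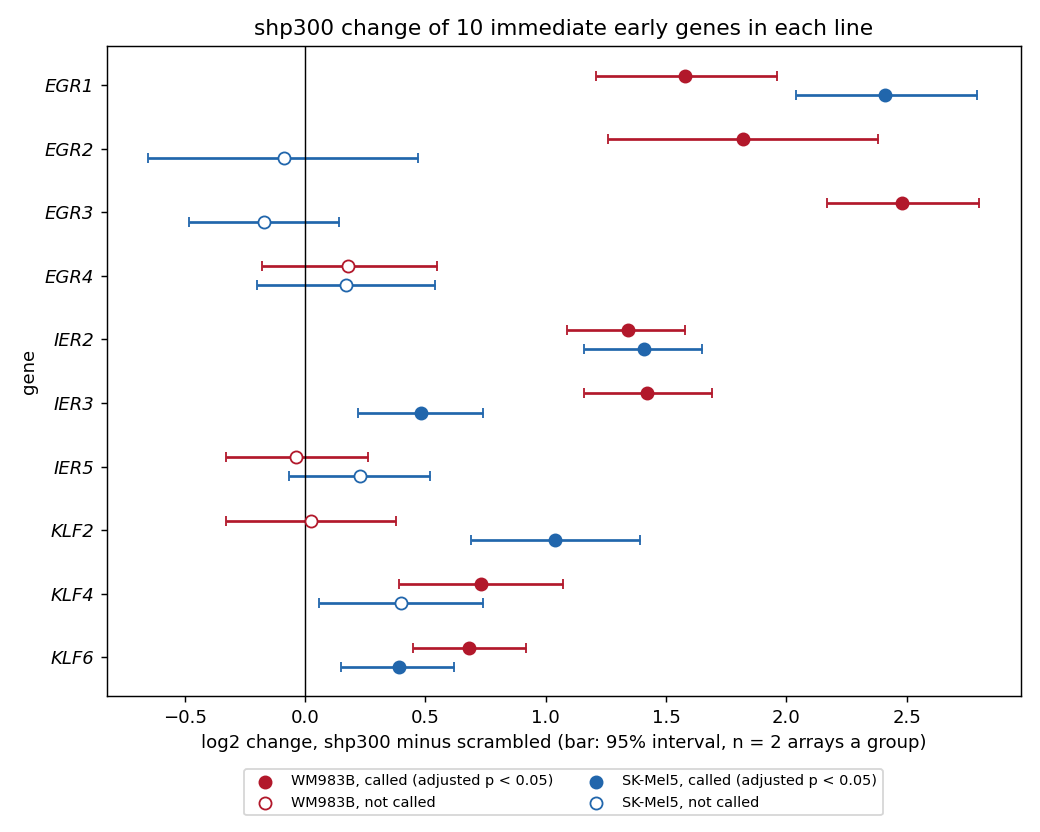
Log2 change (shp300 minus scrambled) of each member in WM983B (red, above) and SK-Mel5 (blue, below), with 95% intervals from limma and n = 2 arrays a group; filled points passed adjusted p under 0.05. EGR3 changed by 2.48 in WM983B and by -0.17 in SK-Mel5, and IER2 by 1.34 and 1.41.

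The lines had 4 members in common among their calls, EGR1, IER2, IER3 and KLF6, all higher with shp300, and 3.03% of all features were called higher in both lines. EGR4 and IER5 were called in neither. A model of line and shRNA over all 8 arrays called 5 members, all higher (7.63% of features were called higher in it). They were EGR1 (2.00, SE 0.182, adjusted p = 0.000178), IER2 (1.37, SE 0.085, adjusted p = 2.86e-05), IER3 (0.95, adjusted p = 0.00696), KLF4 (0.57, adjusted p = 0.0123) and KLF6 (0.54, adjusted p = 0.00509). IER2 combined the smallest SE of the members with a nearly equal change in each line. EGR2 (0.87, adjusted p = 0.147), EGR3 (1.16, adjusted p = 0.126) and KLF2 (0.53, adjusted p = 0.116), each called in 1 line, did not pass over both. In that model the disagreement between lines counts as error, and in the mean of both changes from the 4-group model those 3 passed, which made 8 calls, while the features called in either direction also came to 25.8%, against 16.8% in the additive model. EGR2 also passed without SK-Mel5 shp300 replicate 2 (adjusted p = 0.0348, range 0.00687 to 0.341).

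The difference of the 2 changes (WM983B minus SK-Mel5) was tested for each member, and 4 passed. Of these 3 were higher, where 5% of features were, and 1 was lower, where 4.46% of features were. The count of 4 dropped to 1 when WM983B scrambled replicate 1 was left out, and to 2 when WM983B scrambled replicate 2, WM983B shp300 replicate 2 or SK-Mel5 scrambled replicate 1 was. Fewer of all features passed in these fits too. EGR3 differed most with all arrays, by 2.65 (SE 0.19, adjusted p = 0.000602), and passed under each of 17 alternatives. EGR2 differed by 1.91 (SE 0.343, adjusted p = 0.0143), which did not pass when WM983B scrambled replicate 1 (adjusted p = 0.0602) or 2 (0.0603), WM983B shp300 replicate 2 (0.0586) or SK-Mel5 scrambled replicate 1 (0.0528) was left out, in a range of 0.00279 to 0.0603. IER3 differed by 0.94 (SE 0.16, adjusted p = 0.0116), lost without WM983B scrambled replicate 1 (0.0533), in a range of 0.000166 to 0.0533.

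KLF2 differed the other way, by -1.01 (SE 0.215, adjusted p = 0.0261). Its difference did not pass without WM983B scrambled replicate 1 (adjusted p = 0.0918) or 2 (0.0875), WM983B shp300 replicate 1 (0.0833) or 2 (0.0612), SK-Mel5 scrambled replicate 1 (0.0759) or SK-Mel5 shp300 replicate 1 (0.0656), in a range of 0.00904 to 0.0918. EGR1, larger in SK-Mel5 by its values, had a difference of -0.83 (95% interval -1.36 to -0.30). It did not pass in the test used for all members (adjusted p = 0.0632). With all arrays it passed under trend and robust eBayes (adjusted p = 0.0137) and without dim features (0.0255). The EGR1 difference was not called under 13 of 17 alternatives. With 1 array left out, it ran from -1.03 to -0.63. For IER2 the interval of the difference was -0.42 to 0.28 (estimate -0.071, adjusted p = 0.836). Across the 10 members the changes in WM983B and SK-Mel5 had a Pearson correlation of 0.000288 and a Spearman correlation of -0.152, against 0.452 and 0.335 over all 23786 features. These describe genes measured on shared arrays, which are not independent. A total of 7 of the 10 members had the same sign in both lines, as 59.5% of features had.

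**Figure D4:**
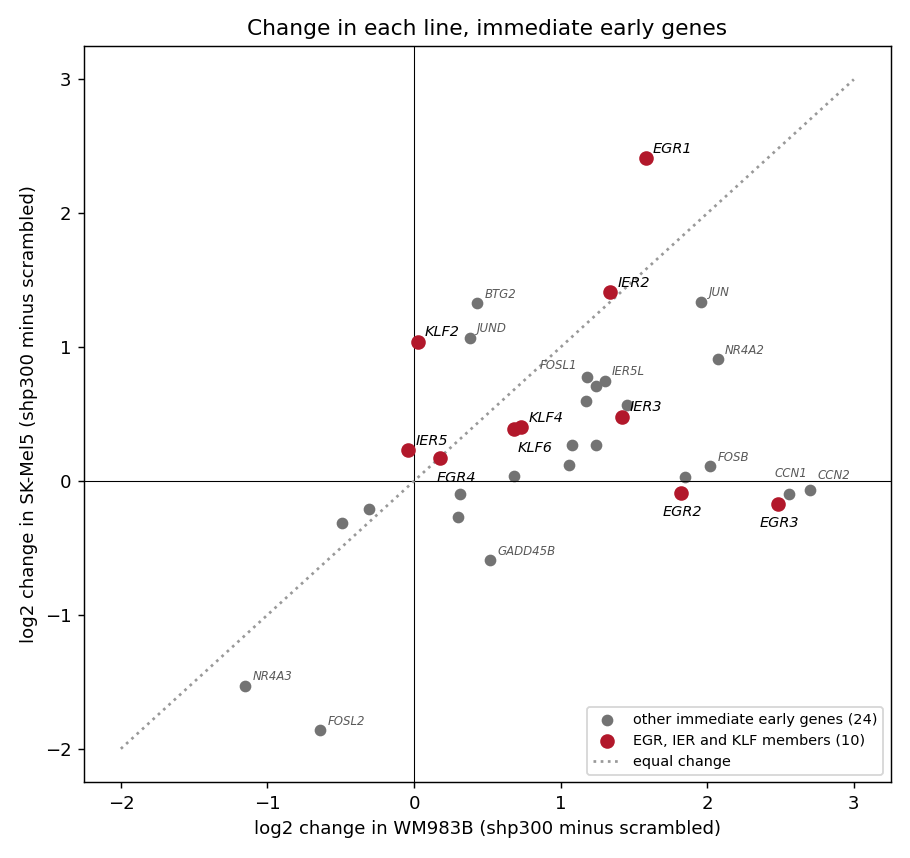
Log2 change in WM983B (x axis) against that in SK-Mel5 (y axis), each shp300 minus scrambled, for the 10 members (red) and 24 other immediate early genes (grey, some labelled); the dotted line marks equal change. IER2 lies at 1.34 and 1.41, near that line, EGR3 (2.48 and -0.17) and CCN2 (2.70 and -0.065) far to its right, and KLF2 (0.025 and 1.04) to its left.

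Other genes of the same response were counted from lists of known roles, also chosen with earlier results of these data known. Beside these counts and those of the lists below stand the shares of all features called higher and lower. They were 10.9% and 11.6% in WM983B, 7.57% and 8.8% in SK-Mel5, and 5% and 4.46% for the difference between lines. Of 24 other immediate early genes, 17 rose and 2 fell in WM983B (median 1.12), among them the matricellular genes CCN2 (2.70) and CCN1 (2.56), the nuclear receptor gene NR4A2 (2.07) and the AP-1 gene FOSB (2.02). In SK-Mel5, 9 rose and 3 fell (median 0.12), with BTG2, an antiproliferative gene, at 1.33, JUND at 1.07, FOSL2 at -1.86 and NR4A3 at -1.53. The difference between lines passed for 13 of them, 12 higher and 1 lower, CCN2 (2.76), CCN1 (2.65) and FOSB (1.91) among them, and EGR3 and EGR2 were higher in the same test. Over both lines JUN (1.65), IER5L (1.03), the IER5 paralogue, and FOSL1 (0.98) rose, and NR4A3 fell by 1.34.

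A list of 12 genes of ERK feedback held phosphatases (DUSP) and inhibitors (SPRY, SPRED) that restrain the pathway, together with PHLDA1 and the transcription factor genes ETV4 and ETV5. Of these 12, 7 rose and 1, ETV5 (-0.52), fell in WM983B (median 0.70). Those that rose included the ERK phosphatase gene DUSP5 (2.32) and the pathway inhibitors SPRY2 (1.57) and SPRED1 (1.15). In SK-Mel5, 2 rose, SPRED1 (1.01) and SPRY2 (0.76), and 4 fell, the phosphatase genes DUSP6 (-0.78) and DUSP4 (-0.68) and the factor genes ETV4 (-0.66) and ETV5 (-0.49). The difference between lines passed for 6 of the 12, all higher, such as DUSP5 (1.93) and DUSP6 (1.43). NAB2, a corepressor that EGR1 is known to induce and that binds EGR proteins, rose by 1.12 in SK-Mel5 (adjusted p = 0.00247). In WM983B it changed by 0.31 (adjusted p = 0.218), and the difference of -0.81 did not pass (adjusted p = 0.0613). The related NAB1 had changes of -0.012 in WM983B (adjusted p = 0.961) and -0.0042 in SK-Mel5 (adjusted p = 0.997).

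Factors and kinases that act before the immediate early genes were also listed. Of 13 measured among 14 listed, 4 rose and 2 fell in WM983B, with the ternary complex factor gene ELK3 at 1.15, BRAF at 0.68, the RSK2 kinase gene RPS6KA3 at 0.53 and MAPK3, which encodes ERK1, at -0.80. None rose and 3 fell in SK-Mel5: RPS6KA3 (-1.40), the CREB relative ATF1 (-0.78) and MAPK3 (-0.63). The RPS6KA3 rise did not pass without WM983B scrambled replicate 1 (0.0847), scrambled replicate 2 (0.0945) or shp300 replicate 2 (0.104), nor the MAPK3 fall in SK-Mel5 without SK-Mel5 scrambled replicate 1 (0.101) or shp300 replicate 2 (0.0715). The difference for RPS6KA3 was 1.93 (adjusted p = 0.00151). SRF was called in neither line, with changes of 0.33 in WM983B (limma adjusted p = 0.0679) and 0.32 in SK-Mel5 (adjusted p = 0.0894). Over both lines its change was 0.32 (adjusted p = 0.0311). The SRF call over both lines was lost when any 1 of 6 of the 8 arrays was left out. Those were all but WM983B shp300 replicate 2 and SK-Mel5 shp300 replicate 2. CREBBP, the gene of the coactivator CBP, rose by 0.69 in WM983B, which did not pass without scrambled replicate 2 (adjusted p = 0.0573), and by 0.92 in SK-Mel5.

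Of 14 other KLF genes, 3 rose and 1 fell in WM983B, KLF10 (1.66), KLF5 (1.51), KLF7 (0.97) and KLF15 (-1.34). Without WM983B scrambled replicate 1, scrambled replicate 2 or shp300 replicate 2 the KLF15 change was -1.38, -1.29 and -0.75 and did not pass (adjusted p of 0.0978, 0.117 and 0.0634). None of the 14 was called in SK-Mel5 by limma at an adjusted p under 0.05 (5 had an unadjusted p under 0.05), where KLF10 had the smallest p, with a change of 0.45 (adjusted p = 0.0529). The difference between lines passed for KLF5 (1.50), KLF7 (1.25) and KLF10 (1.21). Of 8 heat shock genes, listed because handling stress can also induce immediate early genes, 2 rose and 2 fell in WM983B (BAG3 0.78, HSPA1B 0.44, HSPB1 -0.41 and HSP90AA1 -0.64), with a list median of 0.052. The HSPB1 call was lost when any 1 of the 4 WM983B arrays was left out (adjusted p 0.0748 to 0.164), and that of HSPA1B for 3 of those arrays, scrambled replicate 1 (0.0996), scrambled replicate 2 (0.0832) and shp300 replicate 2 (0.0989). In SK-Mel5, HSPA1B rose (0.56) and HSP90AA1 fell (-0.61), with a median of 0.082, calls lost without SK-Mel5 scrambled replicate 1 for HSPA1B (adjusted p = 0.0626) and scrambled replicate 2 for HSP90AA1 (0.063). Whether handling had a part in the changes of the members was not tested.

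**Figure D5:**
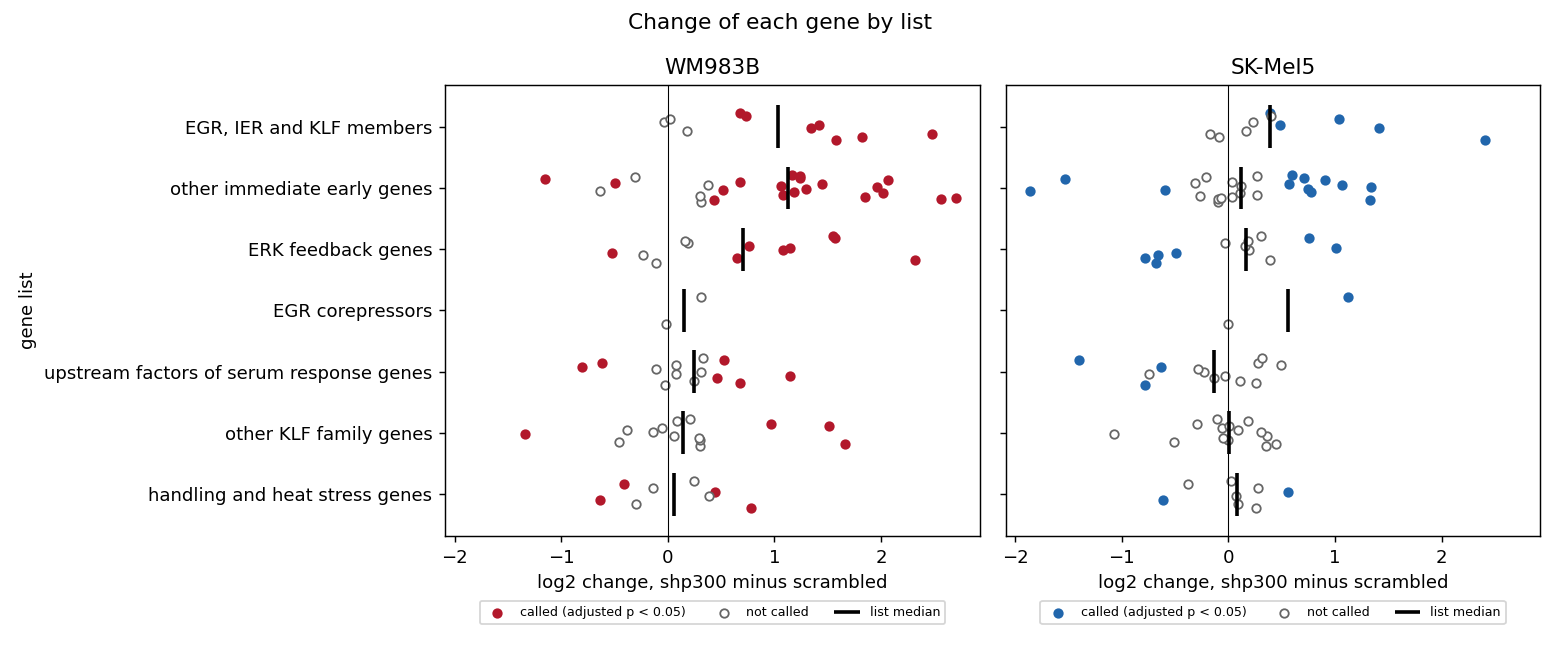
Log2 change (shp300 minus scrambled, x axis) of each gene in 7 lists (rows) in WM983B (left) and SK-Mel5 (right); filled points passed adjusted p under 0.05 and black bars are list medians. The members' median is 1.03 in WM983B and 0.39 in SK-Mel5, and that of the other immediate early genes 1.12 and 0.12.

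The genes whose values ran most like those of 2 members over the 8 arrays, each value taken minus the mean of its line, were found among features with a spread of at least 0.5 times the member's. For EGR1, the member with the largest change over both lines, these were TES (r = 0.996), MXD4 (0.995) and ALDH18A1 (0.994) among 1194 candidates. Their changes were smaller, 1.02 in WM983B and 1.47 in SK-Mel5 for TES. For EGR3, the member with the largest difference between lines, they were STC1 (r = 0.999), SH3TC2-DT (0.997) and SEMA3C (0.996) among 1803 candidates. STC1 changed by 4.15 in WM983B and by -0.31 in SK-Mel5, and SEMA3C by 2.30 and -0.19. With 2 levels of shRNA in each line, the 8 points share that contrast, and the correlations are a description.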

How the data were processed

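The authors deposited 1 log2 expression value per gene feature and array, made with RMA (affy 1.36.1, R 2.15.1), per the submitters' processing notes. How probes were assigned to genes is not stated there. Features were named through the Entrez number in RefSeq's gene table or the platform annotation (23093 of 23786; EGR2 only through RefSeq). Every column was used and no feature was filtered. limma 3.58.1 in R 4.3.3 (lmFit, eBayes) fitted 4 group means to all 8 arrays, and the shRNA term of a second, additive model with the line as covariate gave the change over both lines. All tests were two-sided, with Benjamini-Hochberg adjustment over all features within a comparison; adjusted p under 0.05 is a call, and "rose" and "fell" refer to calls. The arrays, 2 per group, limit the precision; an exact permutation test of 2 against 2 cannot go below p = 0.333. The members, lists and tests were chosen with earlier results of these data known. All members are named, and by likeness the 3 features correlating best with each of 2 members. From each list, up to 4 genes with the smallest p in a comparison are named. Outside that rule, ETV4 and ETV5 are named where they fell in a line, and SRF in WM983B. The ETV4 and ETV5 calls within a line were not checked with single arrays left out. Melanocyte markers called in SK-Mel5 are named too. Alternatives tried were a replicate block, a filter on dim features, centring, quantile or cyclic loess normalization of all arrays, trend and robust eBayes, array weights, adjusted p under 0.1, a minimum of 1.5-fold, only the line's arrays, the mean of both changes, and each array left out. The method was tested on simulated data with 200 of 23786 features changed. There it found 58.2% of the 1-log2-unit changes in WM983B and 56.7% of those in SK-Mel5. It found 82.1% when both lines changed, and 20.9% of such differences between lines. A far larger share of features was called on the real arrays (22.5% in WM983B, 16.4% in SK-Mel5), so these rates need not hold for them.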

Additional observations from a re-analysis of the deposited data

Results flagged for a closer look

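The shp300 change differed between WM983B and SK-Mel5 for 4 of the 10 members by the test of the difference itself (limma, WM983B minus SK-Mel5, 2 arrays per group). Of all features, 5% were called higher and 4.46% lower in that test. As given above, the calls for EGR2, IER3 and KLF2 were each lost in fits that left out single arrays. The differences were 2.65 for EGR3 (adjusted p = 0.000602), 1.91 for EGR2 (adjusted p = 0.0143), 0.94 for IER3 (adjusted p = 0.0116) and -1.01 for KLF2 (adjusted p = 0.0261). EGR3 and EGR2 rose in WM983B and were not called in SK-Mel5, IER3 rose in both lines, and KLF2 rose in SK-Mel5 and was not called in WM983B. In SK-Mel5, EGR3 stood below the median feature with shp300 and with scrambled shRNA (percentiles 44.3 and 46.9). It was not shown to be above background there. The difference for EP300 RNA itself was 0.95 (adjusted p = 0.0357), with the sign of those for EGR3, EGR2 and IER3 and opposite to that for KLF2. EP300 fell in SK-Mel5 and was not called in WM983B, and its part in these differences was not tested. Groups of 2 arrays were too small to look for outlying arrays.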

How the results depend on the processing

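The counts of members called (WM983B 7, SK-Mel5 5, both lines 5, difference 4) stayed within 1.5 times under centring, quantile normalization, cyclic loess, array weights, trend and robust eBayes, an adjusted p under 0.1 and without dim features, where EGR4 was not fitted. Of all features 22.5%, 16.4%, 16.8% and 9.46% were called in these comparisons. Among the features left without the dim ones the shares were 47.1%, 41%, 37.4% and 26.1%. With a minimum of 1.5-fold 3 members were called in SK-Mel5 (11.3% of features) and 3 over both lines (9.63%). From the 4 SK-Mel5 arrays alone 3 were called in SK-Mel5 (8.62% of features). The mean of both changes called 8 over both lines, with 25.8% of all features called, against 16.8%. With 1 array left out the counts moved in each comparison, and the count for the difference was lowest without WM983B scrambled replicate 1. Why the counts moved was not tested. For the difference, fewer of all features were called in each fit with 1 array left out than with all arrays. With a replicate block the counts were 7, 4, 5 and 4, KLF6 in SK-Mel5 being lost (adjusted p = 0.0551). The shares of all features were then 21.1%, 15.1%, 14.1% and 7.75%. Same-numbered arrays did not deviate together (r = 0.003 in WM983B and 0.028 in SK-Mel5). This showed no large shared shift, but it cannot tell whether same-numbered arrays were paired in the experiment. The block term was common to both lines, so pairing within a line was not modelled. No scaling moved the median change of all features by over 0.1.

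Signs turned only for changes that were not called. The EGR4 difference became -0.0052 with centring and -0.075 with quantile normalization, and that of IER2 became 0.016 and the IER5 change in WM983B 0.0037 with quantile normalization. With 1 array left out, the EGR2 change in SK-Mel5 ran from -0.43 to 0.26, the EGR4 change in SK-Mel5 from -0.0048 to 0.34, the EGR4 difference from -0.15 to 0.19, the IER5 change in WM983B from -0.13 to 0.055 and the KLF2 change in WM983B from -0.048 to 0.097. KLF4 in SK-Mel5 passed only without dim features (adjusted p = 0.0473, range 0.0473 to 0.444). No measure of signal over background was used, so EGR4, EGR3 in SK-Mel5 and EGR2 in scrambled WM983B, below the median feature, were not shown to be above background.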
